A study of Mus musculus with 8 samples.

Results

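This section describes how macrophages that had already received interferon beta responded to lipopolysaccharide (LPS). It compares 2 libraries labelled LPS+IFNb with 2 libraries labelled IFNb, which make up 4 of the 8 RNA sequencing libraries of the series, and libraries were assigned to the groups by their labels. All mice were 7-week-old C57BL6 males stimulated in the peritoneal cavity, their cells are labelled as peripheral macrophages, and the labels name no mutation or transgene. The IFNb group received interferon beta (IFNb) for 4 h. The LPS+IFNb group received IFNb for 4 h and then LPS for 4 h, so its cells were taken 8 h after IFNb. No group received IFNb and then saline, so the effect of LPS and that of the 4 further hours after IFNb cannot be told apart. The response without IFNb came from 2 libraries of LPS for 4 h against 2 of saline for 4 h, which share no library with the comparison described here. Whether both libraries of a group are from different mice is not stated in the labels, and the p-values therefore reflect only the variation between libraries, possibly technical.

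LPS is a component of the outer membrane of Gram-negative bacteria. It is sensed by TLR4 with the co-receptors CD14 and MD-2, and signals through MyD88 to NF-kB and AP-1 and through TRIF to IRF3, which switches on the interferon beta gene. Type I interferon acts through IFNAR1, IFNAR2 and JAK kinases to activate interferon-stimulated genes. Macrophages are a main source of inflammatory cytokines after LPS, and interferon is known to change how strongly they respond.

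Levels are given in TPM (transcripts per 1000000), a length-corrected abundance with the same sum in every library, so levels of different genes can be compared. Sequencing depth is unknown. Changes are differences of log2(TPM + 1) between group means ± SE, which understate the change of low genes, and a gene was called changed at an adjusted p under 0.05. Of 13009 genes tested, 39.3% were called in LPS+IFNb against IFNb. The higher genes made up 8.76% of those tested (1140 genes) and the lower genes 30.5% (3967 genes). The excess of lower genes depended on the scale. Genes called higher took 10.2% and 9.82% of all TPM in the IFNb libraries and 22.6% and 22.1% in the LPS+IFNb libraries, and the median change of all genes was -0.30. Median-ratio scaling over all genes moved that median by 0.28 and gave 1788 higher genes (13.7%) and 1423 lower genes (10.9%). Counts called "rescaled" below use that scaling. Without any 1 of the 4 libraries the calls fell to 741 to 829 higher and 1750 to 2534 lower genes. Between the libraries of the 2 groups, 16.8% of genes did not overlap and were higher in LPS+IFNb, and 57% did not overlap and were lower.

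The libraries held macrophage RNA. The macrophage markers Adgre1 (F4/80, added to the genes named by rule) and Csf1r (the M-CSF receptor) were at 201 ± 16.2 TPM and 194 ± 11.8 TPM in IFNb and at 219.5 ± 30.2 TPM and 143 ± 9.12 TPM in LPS+IFNb (SD, n = 2, for these and other means). Gata6, the transcription factor that defines large peritoneal macrophages, was at 0.911 and 0.872 TPM in the IFNb libraries and 1.30 and 0.995 TPM in the LPS+IFNb libraries. That is near the floor of the filter and did not pass the test (0.18 ± 0.28, adjusted p = 0.639). Of the large peritoneal macrophage markers 1 of 22 rose and 3 fell, against 8.76% and 30.5% of all genes. The whole list summed to 13426 and 13495 TPM in IFNb and 12355 and 12247 TPM in LPS+IFNb. Most of that sum was 1 gene, Lyz2, which was not called. Lyz2 was at 11588 and 11641 TPM in IFNb and 10260 and 10160.5 TPM in LPS+IFNb. The sum therefore says little about the other markers of the list. Libraries of the same group correlated at 0.990 (LPS+IFNb) and 0.991 (IFNb) across genes, and pairs drawn from the 2 groups at 0.968 to 0.970. In bulk RNA, fewer cells of a type and less RNA per cell cannot be told apart.

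The 4 largest rises were those of secreted inflammatory mediators. Il1b, which encodes the precursor of IL-1 beta, was at 2.76 and 5.70 TPM in the IFNb libraries and 2093 and 2152 TPM in the LPS+IFNb libraries. Both LPS+IFNb libraries lay far above both IFNb libraries, a change of 8.73 ± 0.26 (adjusted p = 7.40e-06). Il1a, the related alarmin cytokine, was at 4.57 and 3.48 TPM in the IFNb libraries and 1155 and 1069.9 TPM in the LPS+IFNb libraries (7.80 ± 0.15, adjusted p = 2.53e-06). The neutrophil chemokine Cxcl1 was at 0.491 and 0.290 TPM in the IFNb libraries and 303 and 207 TPM in the LPS+IFNb libraries (7.50 ± 0.19, adjusted p = 6.65e-06), and its neighbour Cxcl2 at 5.39 and 3.56 TPM in the IFNb libraries and 1071 and 841 TPM in the LPS+IFNb libraries (7.46 ± 0.21, adjusted p = 7.40e-06). Across these 4 genes the highest IFNb value was 5.70 TPM and the lowest LPS+IFNb value 207 TPM. The 12 largest rises, taken from called genes whose log2(TPM + 1) averaged 3 or more over the 4 libraries, with no overlap between the groups and leaving out predicted genes and pseudogenes, also included Hamp, Tnfsf9, Rnd1, Ptgs2, Ifnb1, Edn1, Socs3 and Tnip3.

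**Figure D1:**
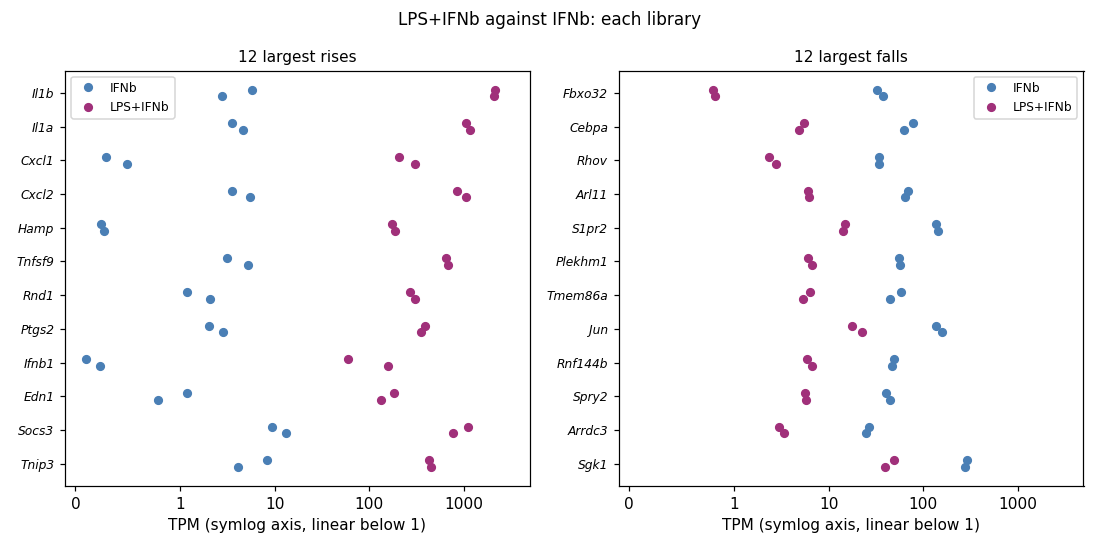
Level in TPM (symlog axis, linear below 1) of the 12 largest rises (left) and 12 largest falls (right) in each IFNb library (blue) and each LPS+IFNb library (purple), 1 point per library. The libraries of the 2 groups do not overlap for any of the 24 genes, as the rule that chose them required; Il1b went from 2.76 and 5.70 TPM to 2093 and 2152 TPM and Fbxo32 from 37.6 and 32.8 TPM to 0.819 and 0.797 TPM.

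Promoters of the leading genes are shown to let a reader see which of them hold the short motifs bound by the factors that LPS and interferon activate. The sequences are RefSeq promoters on GRCm38.p6, from 250 bases before to 50 after the start of the gene, for the 3 genes with the largest rises, the 3 with the largest falls that the table holds, Il12b and Il6. Ifnb1 was added after its values were seen. Capitals mark matches on either strand to a kB motif (GGGA, any 2 bases, then TTCC), an interferon-stimulated response element (ISRE: GAAA, any 2 bases, then GAAA), an AP-1 motif (TGANTCA, where N is any base) or a C/EBP motif (TTGC, any 2 bases, then AA).
Il1b, chr2:129371090-129371389, minus strand: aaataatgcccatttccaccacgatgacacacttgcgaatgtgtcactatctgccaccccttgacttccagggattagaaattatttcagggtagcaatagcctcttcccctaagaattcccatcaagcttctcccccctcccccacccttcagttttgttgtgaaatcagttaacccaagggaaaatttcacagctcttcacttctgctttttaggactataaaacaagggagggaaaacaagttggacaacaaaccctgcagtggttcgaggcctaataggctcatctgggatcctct
Il1a, chr2:129309923-129310222, minus strand: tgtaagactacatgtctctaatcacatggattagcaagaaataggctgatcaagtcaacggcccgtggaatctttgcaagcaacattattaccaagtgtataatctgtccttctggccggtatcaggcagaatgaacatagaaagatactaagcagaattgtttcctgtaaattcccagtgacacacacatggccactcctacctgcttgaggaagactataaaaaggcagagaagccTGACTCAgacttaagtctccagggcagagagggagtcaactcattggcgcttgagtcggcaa
Cxcl1, chr5:90890995-90891294, plus strand: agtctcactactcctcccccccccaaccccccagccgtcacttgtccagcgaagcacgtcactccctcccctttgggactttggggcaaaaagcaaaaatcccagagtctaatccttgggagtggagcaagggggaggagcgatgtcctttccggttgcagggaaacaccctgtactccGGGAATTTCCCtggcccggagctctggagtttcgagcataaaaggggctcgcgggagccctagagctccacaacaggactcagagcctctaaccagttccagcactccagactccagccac
Il6, chr5:30012864-30013163, plus strand: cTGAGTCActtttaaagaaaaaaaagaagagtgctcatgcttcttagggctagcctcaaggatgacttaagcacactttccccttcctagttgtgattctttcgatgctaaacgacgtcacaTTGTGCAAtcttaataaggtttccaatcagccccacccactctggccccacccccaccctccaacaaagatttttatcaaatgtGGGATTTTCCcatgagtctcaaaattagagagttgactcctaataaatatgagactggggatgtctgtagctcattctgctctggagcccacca
Il12b, chr11:44399813-44400112, plus strand: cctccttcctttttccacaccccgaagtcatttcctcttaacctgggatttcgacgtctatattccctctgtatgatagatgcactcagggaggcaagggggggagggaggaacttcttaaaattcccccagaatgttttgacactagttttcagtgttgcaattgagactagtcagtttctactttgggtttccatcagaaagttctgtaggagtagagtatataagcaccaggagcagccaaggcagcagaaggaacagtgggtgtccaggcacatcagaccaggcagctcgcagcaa
Ifnb1, chr4:88522745-88523044, minus strand: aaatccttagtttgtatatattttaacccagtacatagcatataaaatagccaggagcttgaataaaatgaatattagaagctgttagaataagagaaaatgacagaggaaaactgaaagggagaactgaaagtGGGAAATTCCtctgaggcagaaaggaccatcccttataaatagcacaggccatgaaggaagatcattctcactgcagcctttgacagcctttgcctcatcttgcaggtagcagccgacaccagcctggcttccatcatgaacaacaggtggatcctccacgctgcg
Cebpa, chr7:35119043-35119342, plus strand: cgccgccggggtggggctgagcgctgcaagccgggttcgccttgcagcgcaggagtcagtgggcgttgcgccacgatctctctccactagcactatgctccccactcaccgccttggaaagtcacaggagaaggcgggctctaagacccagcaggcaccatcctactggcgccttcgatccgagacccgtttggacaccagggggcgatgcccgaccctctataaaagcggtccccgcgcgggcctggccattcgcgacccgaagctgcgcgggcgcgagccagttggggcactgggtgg
Rhov, chr2:119271177-119271476, minus strand: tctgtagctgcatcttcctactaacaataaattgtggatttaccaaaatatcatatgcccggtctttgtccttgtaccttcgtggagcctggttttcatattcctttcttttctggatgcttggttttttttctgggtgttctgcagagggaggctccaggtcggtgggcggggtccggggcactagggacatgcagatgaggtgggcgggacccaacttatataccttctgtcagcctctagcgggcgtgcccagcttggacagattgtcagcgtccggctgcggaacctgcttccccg
Arl11, chr14:61309503-61309802, plus strand: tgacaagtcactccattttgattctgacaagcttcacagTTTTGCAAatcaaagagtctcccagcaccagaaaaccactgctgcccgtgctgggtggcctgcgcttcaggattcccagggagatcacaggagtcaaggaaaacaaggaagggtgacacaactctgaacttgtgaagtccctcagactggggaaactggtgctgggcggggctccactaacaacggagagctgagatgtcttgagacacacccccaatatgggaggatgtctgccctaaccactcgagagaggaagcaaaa

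The kB motif was found in the windows of Cxcl1, where matches on both strands overlap from base -71, of Il6 at base -44 and of Ifnb1 at base -116, counted from the start of the gene. Il6 also held an AP-1 match at -249 and a C/EBP match at -128, Il1a an AP-1 match at -12 and Arl11 a C/EBP match at -211. None of the 4 motifs occurred in the windows of Il1b, Il12b, Cebpa and Rhov, which says only that these letters are not in these windows. The kB motif occurred in 1.47% of all 32851 promoters in the table, in 1.85% of the 1136 promoters of genes that rose and in 1.35% of the 3936 promoters of genes that fell. Among promoters of all genes tested, from which both sets are drawn, it occurred in 1.56%. The AP-1 motif occurred in 7.81% of all promoters, 5.44% of those of genes tested, 8.89% of those of genes that rose and 4.95% of those of genes that fell. In the same order the shares were 10.8%, 8.85%, 9.33% and 9.07% for the C/EBP motif and 3.44%, 3.47%, 3.43% and 3.12% for the ISRE. With rescaled calls, the AP-1 motif occurred in 7.41% of promoters of genes that rose and 5.35% of those of genes that fell. For the kB motif these shares were 2.07% and 1.34%, for the C/EBP motif 8.74% and 9.71% and for the ISRE 3.45% and 2.53%. These shares are descriptions, and a match is no evidence of binding.

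Proinflammatory cytokines rose as a group: 17 of 21 rose and 1 fell (rescaled 18 and 1), against 8.76% and 30.5% of all genes, with a median change of 3.36. Tnf, the early inflammatory cytokine, was at 27.2 and 30.5 TPM in the IFNb libraries and 1284 and 1369.6 TPM in the LPS+IFNb libraries, a change of 5.48 ± 0.10 (adjusted p = 2.53e-06). Il6, which drives fever and the acute phase response, was at 8.95 and 5.62 TPM in the IFNb libraries and 269 and 205 TPM in the LPS+IFNb libraries (4.86 ± 0.25, adjusted p = 6.06e-05). Tnfsf9, the ligand of the costimulatory receptor 4-1BB, went from 5.23 and 3.11 TPM to 687 and 648 TPM (7.04 ± 0.20, adjusted p = 7.40e-06). The groups did not overlap for any of the 3 genes, which the rule for the largest rises required of Tnfsf9. Of all genes, 16.8% did not overlap and were higher. The member that fell was Tnfsf10, the interferon-induced death ligand TRAIL, which went from 144 and 155 TPM to 53.5 and 60.5 TPM (-1.38 ± 0.15, adjusted p = 0.00119).

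The subunits of the IL-12 family, which steer T cell responses, started from different levels. Il12a (p35) and Il23a (p19) were below 0.4 TPM in both IFNb libraries, Il12a going from 0.108 and 0.348 TPM to 21.8 and 27.00 TPM (4.37 ± 0.28, adjusted p = 0.00015) and Il23a from 0 and 0.210 TPM to 8.20 and 6.75 TPM (2.94 ± 0.23, adjusted p = 0.00034). Il12b (p40), shared by IL-12 and IL-23, was at 0.0375 and 0.133 TPM in the IFNb libraries and 7.43 and 29.8 TPM in the LPS+IFNb libraries. Its 2 LPS+IFNb libraries lay far apart, though both above IFNb, and the change carried a wide error (3.89 ± 0.64, adjusted p = 0.0052). Il27 (p28) was already present after IFNb and went from 31.1 and 38.3 TPM to 404 and 459.8 TPM (3.60 ± 0.18, adjusted p = 5.70e-05).

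Chemokines rose in both classes, where 8.76% of all genes rose and 30.5% fell (rescaled 13.7% and 10.9%). Of 5 CXC chemokines that attract neutrophils or come from platelets, 4 rose and none fell (rescaled the same counts), with Cxcl3 going from 0.0785 and 0.0725 TPM to 40.2 and 21.6 TPM (4.83 ± 0.26) and Cxcl5 listed at 0 in both IFNb libraries but at 1.04 and 0.529 TPM after LPS, a call lost without any 1 library. Of 18 chemokines for monocytes and T cells, 11 rose and none fell (rescaled 11 and none, but 1 lower without LPS+IFNb replicate 1), with a median of 1.63. Ccl5, a chemokine for T cells and monocytes, was at 87.3 and 86.8 TPM in the IFNb libraries and 2349.7 and 2549.5 TPM in the LPS+IFNb libraries (4.80 ± 0.07, adjusted p = 1.99e-06). Ccl3 and Ccl4, the macrophage inflammatory proteins, were among the most abundant induced transcripts: Ccl3 went from 123 and 101 TPM to 3193 and 2718 TPM (4.72 ± 0.12) and Ccl4 from 392 and 300.1 TPM to 3913 and 3451 TPM (3.42 ± 0.15). Cxcl10, an interferon-induced chemokine for activated T cells, was already abundant after IFNb and still rose, from 1848 and 1610.1 TPM to 5240.5 and 4489.9 TPM (1.49 ± 0.12, adjusted p = 0.000399).

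**Figure D2:**
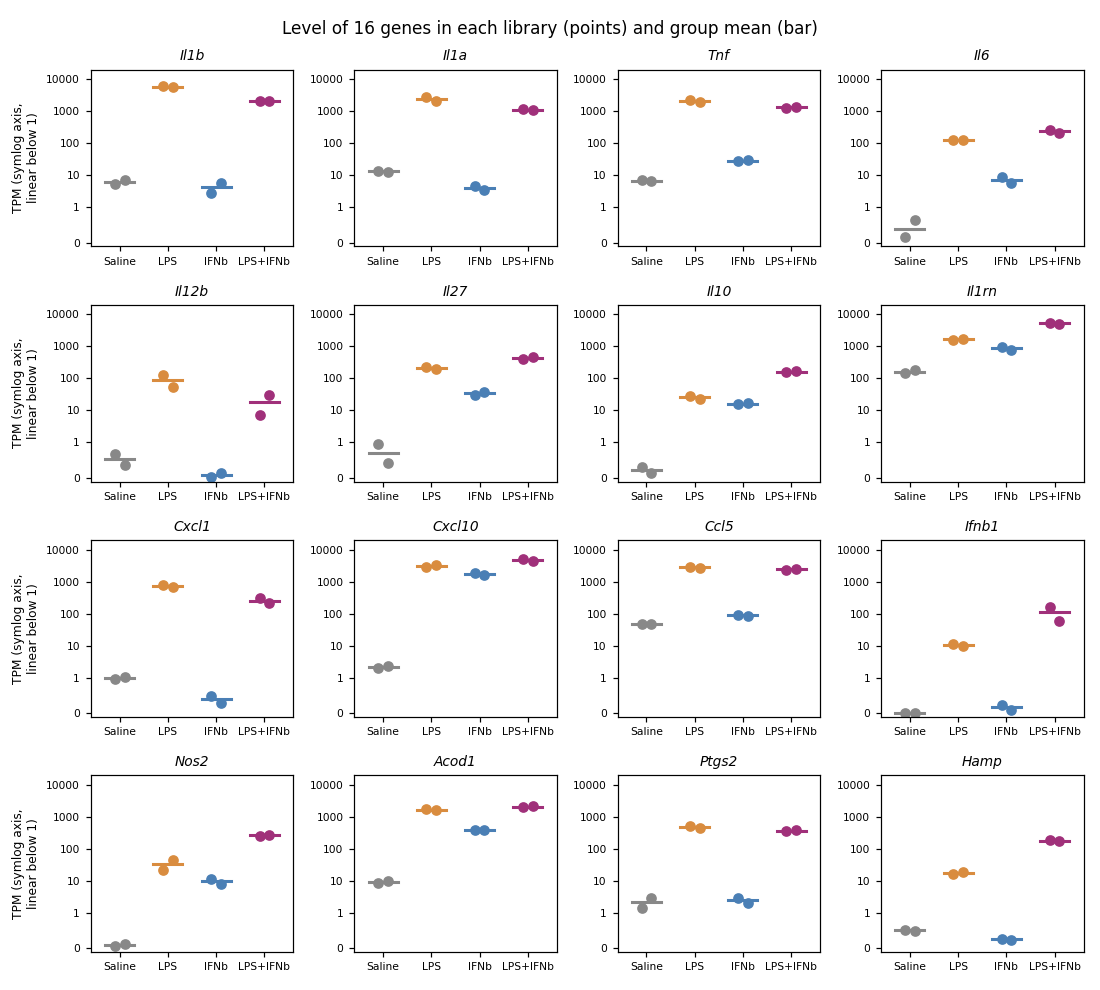
Level in TPM (symlog axis, linear below 1) of 16 genes in each of the 8 libraries (points), with the group mean (bar), in saline, LPS, IFNb and LPS+IFNb. In all 16 panels both LPS+IFNb libraries lie above both IFNb libraries. The rule for the largest rises required this of Il1b, Il1a, Cxcl1, Hamp, Ptgs2 and Ifnb1. The 2 LPS+IFNb points lie farthest apart for Il12b and Ifnb1.

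The interferon beta gene itself was switched on. Ifnb1 was at 0.229 and 0.101 TPM in the IFNb libraries and 158 and 59.5 TPM in the LPS+IFNb libraries (6.40 ± 0.40, adjusted p = 0.00015). The groups did not overlap, as its choice among the largest rises required, although the LPS+IFNb libraries differed from each other. In the list of interferons, their receptors, JAK kinases, STAT and IRF factors, 10 of 24 rose and 3 fell (rescaled 15 and 1). Genes at large rose in 8.76% and fell in 30.5% of cases (rescaled 13.7% and 10.9%). Ifnar1, which encodes a subunit of the receptor for type I interferon, rose from 74.2 and 72.7 TPM to 167 and 181 TPM (1.23 ± 0.09, adjusted p = 0.000308). Stat5a, a transducer of growth factor signals, rose by 4.23 ± 0.12, and the kinase gene Jak2 by 1.07 ± 0.08. Stat2, an interferon-activated transducer, changed by -0.72 ± 0.08, and Irf2, a competitor of IRF1, by -0.69 ± 0.14. The fall of Stat2 was also called after rescaling, and that of Irf2 was lost after rescaling and without any 1 library except LPS+IFNb replicate 2.

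Antiviral interferon-stimulated genes were abundant after IFNb and most were not called. Of 60 tested, 8 rose, 14 fell and 38 did not pass, with a median of -0.17 (rescaled 12 higher, 1 lower and a median of 0.17). Among all genes 8.76% rose and 30.5% fell as deposited, and 13.7% and 10.9% after rescaling. Without single libraries the list had 3 to 5 higher and 4 to 8 lower members, each of the 4 libraries moving both counts by more than 1.5 times. Rsad2, the antiviral enzyme viperin, was at 7031 and 6725 TPM in the IFNb libraries and 6131 and 6102 TPM in the LPS+IFNb libraries, a change of -0.17 ± 0.10 (adjusted p = 0.209) that turned to 0.17 when rescaled. Isg15, the ubiquitin-like modifier, rose from 2145 and 2004 TPM to 3338 and 3023 TPM (0.62 ± 0.20, adjusted p = 0.047), a call lost without any 1 of the 4 libraries (adjusted p 0.104 to 0.181), and Irf7, which amplifies interferon production, was at 2707 and 3067 TPM in the IFNb libraries and 2597 and 2819 TPM in the LPS+IFNb libraries (-0.09 ± 0.25, adjusted p = 0.796, rescaled 0.25). Ifi205, a DNA-binding PYHIN protein, rose by 1.11 ± 0.14, and the exonuclease gene Trex1 by 0.82 ± 0.08. Ifit1bl1, an IFIT family member, fell from 1633 and 1577 TPM to 784 and 792 TPM (-1.03 ± 0.17, adjusted p = 0.00585), and Cmpk2, a nucleotide kinase, changed by -0.56 ± 0.09, which did not pass after rescaling. IFIT and OAS genes have close paralogs, between which reads may have been divided uncertainly.

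**Figure D3:**
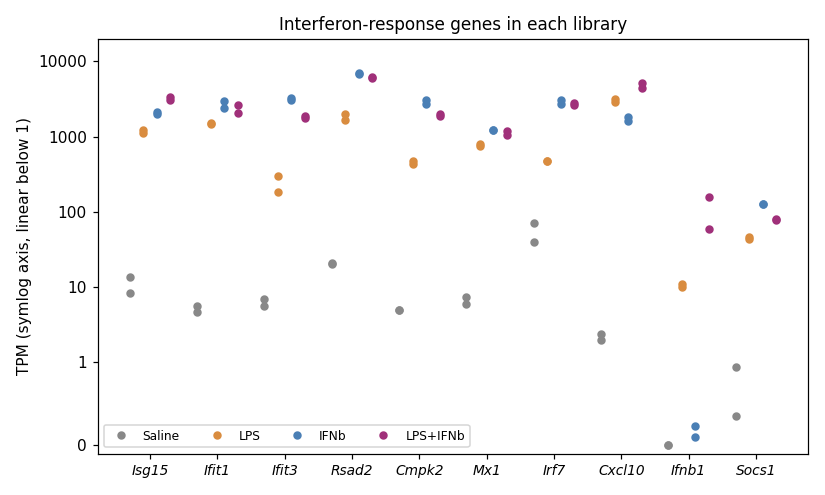
Level in TPM (symlog axis, linear below 1) of 10 genes in each library, 2 points per group, in saline (grey), LPS (orange), IFNb (blue) and LPS+IFNb (purple). The genes are interferon-response genes and Ifnb1, the interferon beta gene itself. For Isg15, Ifit1, Rsad2, Cmpk2 and Mx1 the highest saline point is at 20.8 TPM and the lowest point of the other 3 groups at 426 TPM; for Ifnb1 the LPS+IFNb points lie above those of the other 3 groups.

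GTPases of host defence and antigen presentation genes had few calls, where all genes had 8.76% higher and 30.5% lower (rescaled 13.7% and 10.9%). Of 18 interferon-induced GTPases of the GBP and IRG families, which attack intracellular microbes, 1 rose (Gbp5, 0.82 ± 0.08) and 4 fell, or 1 to 2 without any 1 library except LPS+IFNb replicate 1 (rescaled 2 and 1). In MHC class I presentation 3 of 24 rose, the class Ib genes H2-Q4, H2-Q6 and H2-Q7, each of whose calls was lost without 2 or more single libraries (0 members higher without IFNb replicate 1 or LPS+IFNb replicate 2), and 4 fell, or 1 to 2 without any 1 library (rescaled 7 and 1). H2-Q6 and H2-Q7 are near-identical and their reads cannot be parted with certainty. None of 10 class II genes was called by limma with or without rescaling, and 0 and 1 had an unadjusted p under 0.05.

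Feedback regulators rose alongside the cytokines, where 8.76% of all genes rose and 30.5% fell (rescaled 13.7% and 10.9%). Among anti-inflammatory mediators and feedback regulators 21 of 26 rose and 3 fell, or 1 without any 1 library (rescaled 22 and none), with a median of 2.56. Socs3, which restrains signalling of IL-6 and related cytokines, went from 13.1 and 9.31 TPM to 763 and 1105 TPM (6.25 ± 0.30, adjusted p = 4.37e-05). Il10, the anti-inflammatory cytokine, went from 15.7 and 16.9 TPM to 159 and 168 TPM (3.25 ± 0.13, adjusted p = 2.64e-05), and Il1rn, the antagonist that blocks the IL-1 receptor, from 966 and 767 TPM to 5377 and 5100.1 TPM (2.60 ± 0.14, adjusted p = 6.55e-05). By level, Il1rn exceeded both agonists: it averaged 5238 ± 196 TPM against 2122 ± 41.8 TPM for Il1b and 1113 ± 60.5 TPM for Il1a in LPS+IFNb. Dusp2, a phosphatase of MAP kinases, rose by 5.25 ± 0.14, Tnfaip3, the ubiquitin-editing enzyme A20, by 4.07 ± 0.13 and Tnip3, an A20-binding protein, went from 4.05 and 8.35 TPM to 448 and 433 TPM. Socs1, an inhibitor of JAK kinases, fell instead from 125 and 128 TPM to 77.4 and 79.01 TPM (-0.69 ± 0.17, adjusted p = 0.0199), a call that was lost after rescaling (-0.35) and without any 1 of the 4 libraries.

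All 11 NF-kB subunit and inhibitor genes rose, with a median of 3.05 (rescaled all 11). Nfkbia, the inhibitor that NF-kB induces against itself, went from 49.6 and 60.3 TPM to 984 and 975 TPM (4.14 ± 0.12, adjusted p = 7.40e-06). Nfkbiz, a nuclear cofactor for a subset of NF-kB targets, went from 9.51 and 8.30 TPM to 278 and 279 TPM (4.82 ± 0.15, adjusted p = 9.32e-06), and Nfkb2, which encodes the precursor of the p52 subunit, rose by 4.14 ± 0.15. Genes of the receptor complex that starts the pathway moved apart. Among genes of LPS sensing and TLR4 signalling 8 of 28 rose and 6 fell (rescaled 11 and 3). The shares of all genes were 8.76% and 30.5% (rescaled 13.7% and 10.9%). Cd14, the LPS co-receptor, rose from 83.7 and 52.2 TPM to 719.6 and 514 TPM (3.18 ± 0.25, adjusted p = 0.000354), and Tlr2, the receptor for bacterial lipopeptides, by 4.42 ± 0.10. Tlr4 itself fell from 61.9 and 73.4 TPM to 21.9 and 25.3 TPM (-1.48 ± 0.13, adjusted p = 0.000605, rescaled -1.15), and the kinase gene Irak1 changed by -0.74 ± 0.12 (rescaled -0.41).

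AP-1 and immediate-early genes rose in 13 of 20 cases (rescaled 16), and 1 fell under both scalings. Genes at large rose in 8.76% and fell in 30.5% of cases (rescaled 13.7% and 10.9%). The risers included Batf (3.82 ± 0.20), Junb (3.22 ± 0.14) and Maff (3.27 ± 0.19), all AP-1 or related basic leucine zipper factors, and the early response gene Ier2 (3.48 ± 0.12). The exception was Jun, the founding AP-1 subunit, which fell from 160.5 and 136 TPM to 22.5 and 17.5 TPM (-2.83 ± 0.24, adjusted p = 0.000454, rescaled -2.51). Members of the same transcription factor family thus changed in opposite directions.

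Effector enzymes of the antimicrobial and arachidonate list rose in 15 of 31 cases and fell in 4 (rescaled 17 and none). Genes at large rose in 8.76% and fell in 30.5% of cases (rescaled 13.7% and 10.9%). Without single libraries 9 to 11 rose, the fewest without IFNb replicate 2, and without any 1 of the 4 only 0 to 1 fell. Ptgs2, the inducible prostaglandin synthase COX-2, went from 2.84 and 2.03 TPM to 351 and 385 TPM (6.75 ± 0.22, adjusted p = 1.08e-05). Nos2, the inducible nitric oxide synthase, went from 11.04 and 7.92 TPM to 244 and 275 TPM (4.65 ± 0.32, adjusted p = 0.000217), and Acod1, which makes itaconate, from 396 and 397 TPM to 1948 and 2089 TPM (2.34 ± 0.11, adjusted p = 4.14e-05). Arg1, which competes with NOS2 for arginine, was at 1589 and 655 TPM in the IFNb libraries and 1313 and 507 TPM in the LPS+IFNb libraries. Its libraries overlapped between the groups and the change did not pass (-0.32 ± 0.74, adjusted p = 0.756). At each replicate number the LPS+IFNb library was below the IFNb library. Lcn2, which withholds iron from bacteria by binding siderophores, rose by 5.96 ± 0.35 and the mitochondrial superoxide dismutase gene Sod2 by 2.68 ± 0.08.

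Iron and metal genes were called in both directions. Hamp, which encodes hepcidin, the hormone that closes the iron exporter ferroportin, was at 0.269 and 0.239 TPM in the IFNb libraries and 187 and 173 TPM in the LPS+IFNb libraries (7.17 ± 0.12, adjusted p = 1.99e-06). In its list of NRF2, iron and metallothionein genes 8 of 19 rose and 3 fell (rescaled 10 and 1). For all genes the shares were 8.76% and 30.5% (rescaled 13.7% and 10.9%). The metal transporters Slc39a14 and Slc11a2 rose by 2.75 ± 0.25 and 1.72 ± 0.16, and the zinc exporter gene Slc30a1 fell from 120.3 and 119 TPM to 22.2 and 27.3 TPM (-2.23 ± 0.14, adjusted p = 0.00013, rescaled -1.90). Ftl1, the ferritin light chain, fell by 0.52 (rescaled -0.17, not called).

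Costimulation, growth factor and coagulation genes rose more often than genes at large, of which 8.76% rose and 30.5% fell (rescaled 13.7% and 10.9%). Of 22 costimulation, adhesion and migration genes 14 rose and 3 fell (rescaled 14 and 1), with Tnfsf4, the OX40 ligand, going from 1.26 and 0.766 TPM to 75.5 and 95.3 TPM (5.43 ± 0.25) and the costimulatory receptor Cd40 from 184 and 215 TPM to 697 and 917 TPM (2.00 ± 0.16). The chemokine receptor gene Cxcr4 fell from 35.00 and 36.9 TPM to 9.97 and 7.22 TPM (-1.96 ± 0.16, adjusted p = 0.000462). Among colony-stimulating and growth factors 8 of 14 rose and none fell (rescaled 9 and none). Edn1, the vasoconstrictor endothelin 1, went from 0.784 and 1.17 TPM to 134 and 181 TPM (6.32 ± 0.18), and Csf2 and Csf3, the factors for granulocyte and macrophage growth, from 0 and 0.0870 TPM to 18.7 and 15.01 TPM and from 0.0394 and 0 TPM to 18.5 and 10.2 TPM. In coagulation, proteolysis and matrix 11 of 24 rose and 2 fell (rescaled the same counts). Adamts4, a protease that cleaves cartilage proteoglycan, rose by 3.06 ± 0.30, whereas Plau, the plasminogen activator urokinase, fell from 362 and 418 TPM to 144 and 157 TPM (-1.36 ± 0.19) and Thbd, the anticoagulant thrombomodulin, fell by 2.45.

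Inflammasome and cell death genes had calls in both directions. All genes had 8.76% higher and 30.5% lower (rescaled 13.7% and 10.9%), and the share of lower members in this list was near that. Of 29 tested, 11 rose and 10 fell (rescaled 14 and 4), with 6 to 8 lower without single libraries, a drop of more than 1.5 times without IFNb replicate 2 or LPS+IFNb replicate 1. Nlrp3, the sensor that LPS is known to prime, went from 5.20 and 5.54 TPM to 127 and 143 TPM (4.42 ± 0.15, adjusted p = 1.12e-05), and Mefv, which encodes pyrin, rose by 4.11 ± 0.13. The survival genes Bcl2a1a and Bcl2a1d rose by 4.28 ± 0.16 and 3.32 ± 0.12, although these near-identical paralogs cannot be parted with certainty. The DNA sensor Aim2 fell from 272 and 303 TPM to 150.2 and 143 TPM (-0.96 ± 0.09, rescaled -0.62), the flagellin sensor gene Naip5 changed by -0.83 ± 0.12 and the adaptor gene Pycard by -0.64 ± 0.10, the last not called after rescaling.

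**Figure D4:**
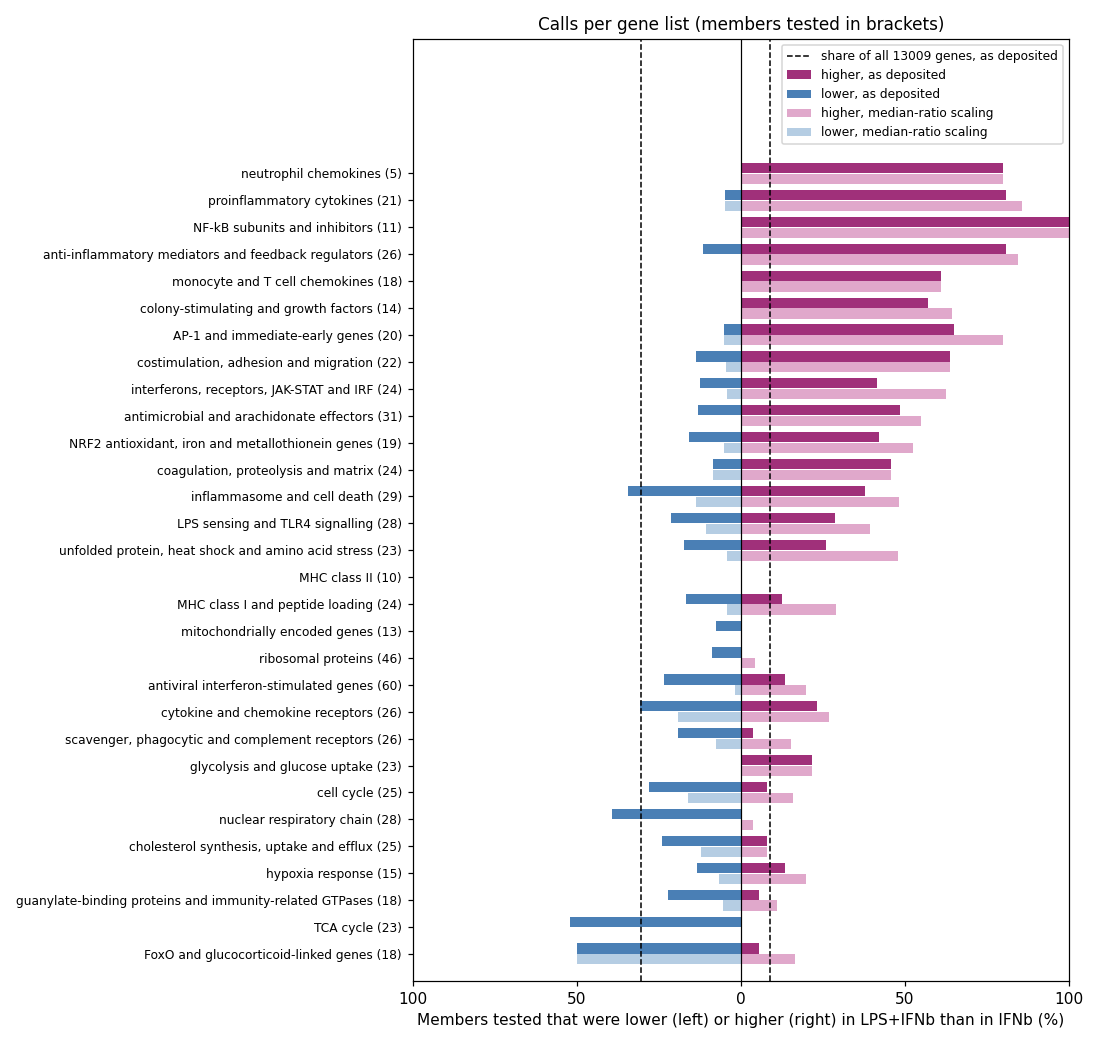
Share of the members tested in each of 30 gene lists that were higher (right) or lower (left) in LPS+IFNb than in IFNb, as deposited (dark) and after median-ratio scaling (light), with the shares of all genes as deposited (dashed lines at 8.76% and 30.5%). NF-kB genes reach 100% on the right; TCA cycle genes are lower as deposited only.

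The largest falls, chosen by the same conditions, included several regulators of transcription and signalling. Fbxo32, the ubiquitin ligase subunit atrogin-1 and a FoxO target, was at 37.6 and 32.8 TPM in the IFNb libraries and 0.819 and 0.797 TPM in the LPS+IFNb libraries (-4.32 ± 0.13, adjusted p = 7.40e-06, rescaled -4.16). Cebpa, a lineage factor of myeloid cells, was at 63.1 and 77.5 TPM in the IFNb libraries and 4.85 and 5.53 TPM in the LPS+IFNb libraries (-3.52 ± 0.17, adjusted p = 4.61e-05, rescaled -3.23). Both genes fell to a small part of their level in each LPS+IFNb library. The rule that chose them required no overlap, and 57% of all genes did not overlap and were lower. The small GTPase genes Rhov and Arl11 fell by 3.31 and by 3.24, the sphingosine phosphate receptor gene S1pr2 from 145 and 137 TPM to 14.05 and 14.8 TPM (-3.20 ± 0.08) and Sgk1, a kinase induced by glucocorticoids, from 277 and 294 TPM to 39.1 and 49.3 TPM (-2.67 ± 0.29). The 12 largest falls further held Plekhm1, Tmem86a, Jun, Rnf144b, Spry2 and Arrdc3, and all 12 were also called lower after rescaling. Among FoxO and glucocorticoid-linked genes 9 of 18 fell and 1 rose (rescaled 9 and 3), with Tsc22d3, the glucocorticoid-induced leucine zipper, going from 55.4 and 52.6 TPM to 7.82 and 8.40 TPM (-2.59 ± 0.09) and the cyclin gene Ccng2 rising by 1.88 ± 0.09. The list's median was -0.79, against -0.30 for all genes, of which 8.76% rose and 30.5% fell (rescaled 13.7% and 10.9%).

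Receptors, lipid genes and cell cycle genes had calls in both directions. Among all genes 8.76% were higher and 30.5% lower (rescaled 13.7% and 10.9%). As deposited, the share of lower members in these lists was near or below that of all genes. Of 26 cytokine and chemokine receptor genes 6 rose and 8 fell (rescaled 7 and 5). Without any 1 of the 4 libraries 2 members rose and 5 to 7 fell, the fewest without IFNb replicate 2. The TNF receptor gene Tnfrsf1b rose from 166 and 177 TPM to 633 and 735 TPM (1.99 ± 0.10), while the IL-6 receptor gene Il6ra fell from 17.9 and 20.8 TPM to 5.12 and 5.91 TPM (-1.64 ± 0.20) and the monocyte chemokine receptor gene Ccr2 from 23.4 and 22.8 TPM to 5.34 and 8.02 TPM (-1.67 ± 0.19). Among scavenger, phagocytic and complement genes 1 of 26 rose, C5ar1, the receptor of the anaphylatoxin C5a (2.68 ± 0.13), and 5 fell (rescaled 4 and 2), among them Mertk, a receptor for apoptotic cells (-0.82 ± 0.11, rescaled -0.48). Cholesterol genes had 2 higher and 6 lower of 25 (rescaled 2 and 3; 1 to 2 and 3 to 5 without single libraries, the higher count moved by any 1 except IFNb replicate 1 and the lower by IFNb replicate 1 or LPS+IFNb replicate 2), and the exporter genes moved apart: Abca1 rose by 1.10 ± 0.27, a call lost without IFNb replicate 2 or either LPS+IFNb library, and Abcg1 fell from 165 and 181 TPM to 37.2 and 44.4 TPM (-2.06 ± 0.13). Cell cycle genes had 2 higher and 7 lower of 25 (rescaled 4 and 4), with 4 to 6 lower without single libraries, the fewest without LPS+IFNb replicate 1. Mki67, the marker of dividing cells, rose from 0.716 and 0.708 TPM to 15.3 and 18.2 TPM (3.37 ± 0.13), while the DNA replication gene Mcm3 fell by 1.51, so that the list did not move one way.

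Calls in the energy metabolism and housekeeping lists depended on the scale and on single libraries. All genes had 8.76% higher and 30.5% lower (rescaled 13.7% and 10.9%). Of 23 TCA cycle genes 12 fell and none rose as deposited, and none was called by limma in either direction after rescaling, where 4 had an unadjusted p under 0.05. Nuclear respiratory chain genes fell in 11 of 28 cases (rescaled none, with 1 higher), mitochondrially encoded genes in 1 of 13 (rescaled none) and ribosomal protein genes in 4 of 46 (rescaled none, with 2 higher). Without single libraries the lower members numbered 3 to 6 for the TCA cycle, 2 to 4 for the respiratory chain, 0 for the mitochondrially encoded genes and 0 to 2 for the ribosomal proteins, and each of the 4 libraries moved each count by more than 1.5 times. Glycolysis and glucose uptake had 5 of 23 higher and none lower under both scalings, but 1 to 4 higher without single libraries, a drop of more than 1.5 times without any 1 except IFNb replicate 1. The risers named by rule were transporters or the first enzyme of the pathway: Slc2a6 (3.78 ± 0.11), the glucose transporter Slc2a1 (1.22 ± 0.31), the hexokinase gene Hk2 (1.45 ± 0.35) and the lactate transporter Slc16a1 (1.06 ± 0.22). The calls of Slc2a1, Hk2 and Slc16a1 were lost without IFNb replicate 2 or LPS+IFNb replicate 1, and that of Hk2 also without LPS+IFNb replicate 2. In the hypoxia list 2 of 15 rose and 2 fell (rescaled 3 and 1; 1 lower without IFNb replicate 1 or LPS+IFNb replicate 2), with Hif1a, its main transcription factor, at 1.61 ± 0.07. Protein folding and amino acid stress genes had 6 higher and 4 lower of 23 (rescaled 11 and 1; 3 to 4 and 2 to 3 without single libraries, the higher count moved by IFNb replicate 2 or LPS+IFNb replicate 2 and the lower by any 1 except IFNb replicate 2).

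Set beside LPS against saline, the response after IFNb shared most of its higher genes and was much smaller for interferon-response genes. The 2 comparisons share no library, and their changes correlated across the 13009 genes at r = 0.697 (Spearman 0.652), a description in which genes are not independent replicates. Of the 1140 genes higher after IFNb, 867 (76.1%) were also higher in LPS against saline, which is 52.1% of the 1664 genes higher there (12.8% of those tested, where 54.1% were called in either direction). Of the 3967 lower genes, 3176 (80.1%) were also lower in LPS against saline, or 59.2% of the 5368 lower there (41.3% of those tested). Both lower sets depended on the scale. The median changes of all genes were -0.30 and -0.38 as deposited, and rescaling left 1423 and 2254 lower genes. The overlap was not computed after rescaling, so the part of the scale in the shared falls was not tested. The difference between the 2 responses was tested as the interaction, the change in LPS+IFNb against IFNb minus that in LPS against saline, and was called positive for 3.51% and negative for 4.45% of genes. Leaving out 1 of the 8 libraries gave 129 to 453 positive and 340 to 612 negative calls. The 4 further hours after IFNb are part of this difference and cannot be told apart from it.

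Among antiviral genes the interaction was negative for 56 of 60, with a median of -3.19. LPS alone raised 57 of them, against 8 after IFNb. Rsad2 was at 20.8 and 20.3 TPM in saline and 1991 and 1659.9 TPM with LPS (6.40 ± 0.10, interaction -6.57 ± 0.14, adjusted p = 4.58e-06), levels below those of both IFNb groups given above. Ifit1, whose product binds viral RNA, changed by 7.96 ± 0.15 without and -0.21 ± 0.15 with prior IFNb, and the GTPase gene Mx1 by 6.68 ± 0.11 and -0.14 ± 0.11. Cxcl10 had the most negative interaction of the genes named by rule (-8.44 ± 0.17, adjusted p = 4.58e-06), although its highest levels were those of LPS+IFNb. The interaction was also negative for 15 of 18 interferon-induced GTPases and 12 of 24 class I genes, and positive for none of either.

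Cytokine genes differed among themselves. The interaction was negative for 9 of 21 and positive for none. For Tnf, saline was at 7.06 and 6.69 TPM and LPS at 2238 and 1925 TPM, and the interaction was -2.57 ± 0.15, adjusted p = 0.000154, while the base level after IFNb was above that of saline. For Il27 it was -3.38 ± 0.26, adjusted p = 0.000626, for Il23a -3.13 ± 0.32, adjusted p = 0.00216 and for Il6 -1.71 ± 0.36, adjusted p = 0.0377. The levels reached were not ordered alike: Il27 was at 224 and 197 TPM with LPS alone, below both LPS+IFNb libraries, while Il23a was at 86.4 and 57.4 TPM, above both. For Il1b, Il1a, Il12a and Il12b it did not pass: -0.98 ± 0.37, 0.39 ± 0.21, -1.07 ± 0.39 and -1.91 ± 0.90, with adjusted p between 0.164 and 0.331. Il12b, whose error was the largest of the 4, was at 130.5 and 54.2 TPM with LPS alone, above the LPS+IFNb libraries. NF-kB genes had 1 positive and 3 negative of 11.

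Some genes rose more after IFNb than without it. Hamp was at 0.519 and 0.481 TPM in saline and 16.5 and 18.5 TPM with LPS, and its interaction was 3.54 ± 0.17, adjusted p = 6.90e-05. With LPS alone Ifnb1 was at 10.9 and 10.01 TPM, against a listing at 0 in each saline library, with an interaction of 2.88 ± 0.57, adjusted p = 0.0321. Gdf15, a stress-induced hormone of the TGF-beta superfamily, changed by 1.51 ± 0.22 without and 4.15 ± 0.22 with prior IFNb, and the phosphatase gene Dusp7 by -0.81 ± 0.19 and 2.44 ± 0.19. For Gadd45a, a growth arrest gene, the changes were -0.36 ± 0.12 and 2.38 ± 0.12. These last 3 genes had lower levels in IFNb than in saline: Dusp7 averaged 31.2 ± 5.35 TPM in saline and 8.80 ± 1.93 TPM in IFNb, and Gadd45a 36.02 ± 0.381 TPM and 5.05 ± 0.633 TPM. For Cxcr4 the positive interaction (2.95 ± 0.23, adjusted p = 0.000681) marked a smaller fall, as IFNb libraries started at 35.95 ± 1.35 TPM and saline libraries at 176 ± 22.7 TPM. Of the 457 genes with a positive interaction, 167 were lower in both comparisons and 159 were lower in LPS against saline and not called after IFNb.

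**Figure D5:**
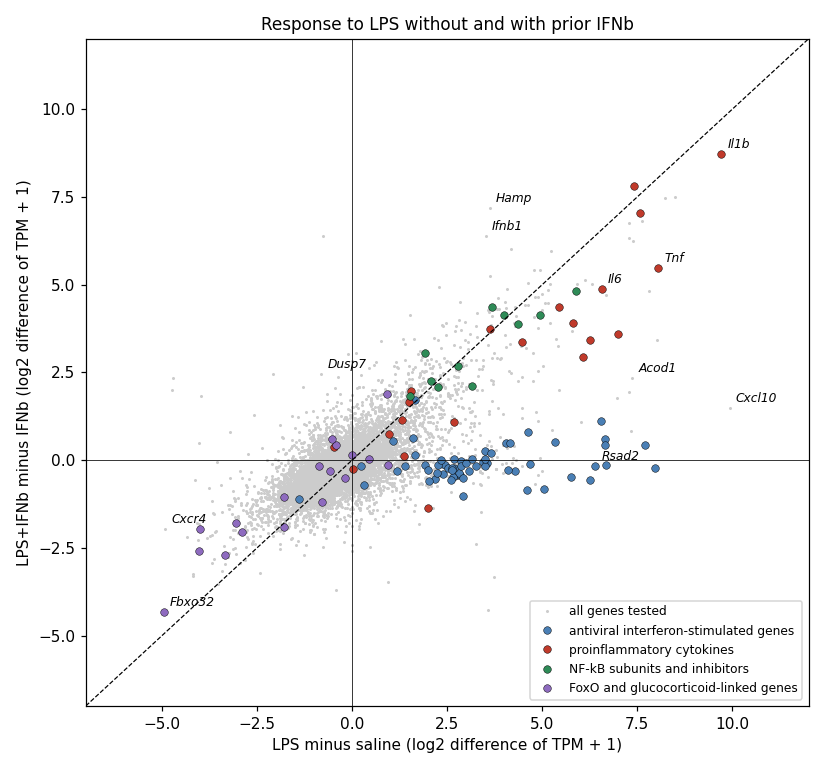
Change in LPS against saline (horizontal axis) and in LPS+IFNb against IFNb (vertical axis) for all genes tested (grey) and 4 gene lists (colours), as log2 differences of TPM + 1, with the line of equal change (dashed). Antiviral genes lie along the horizontal axis, near 0 on the vertical. NF-kB genes lie around the line of equal change, with the interaction called positive for 1 and negative for 3 of 11. Hamp and Ifnb1 lie above the line.

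Markers of other peritoneal cells were detected and had few calls, where all genes had 8.76% higher and 30.5% lower. B cell markers, 17 genes, summed to 138 and 142 TPM in IFNb and 127 and 123 TPM in LPS+IFNb, with 1 of 16 tested higher and 2 lower (0 and 0 to 1 without any 1 library). Neutrophil markers summed to 351 and 276 TPM against 342 and 273 TPM, with Elane and Ngp listed at 0 in all 4 libraries and S100a8 the only one of 9 tested that was called (0.91 ± 0.15). T and NK cell markers summed to 111 and 154 TPM against 91.9 and 120.2 TPM, and none of 15 was called by limma or had an unadjusted p under 0.05, though 1 was higher without IFNb replicate 2. Monocyte and small peritoneal macrophage markers summed to 2903 and 3260.0 TPM against 2646 and 2863 TPM and had 1 higher and 2 lower of 15. Dendritic cell markers summed to 1093 and 1068 TPM against 994 and 956 TPM, with 2 higher and 0 lower of 13 (1 higher without IFNb replicate 2 or LPS+IFNb replicate 2, and 1 lower without IFNb replicate 1). In saline the dendritic list summed to 146 and 153 TPM and the monocyte list to 1095 and 1671.5 TPM. The dendritic list holds Bst2, which is also among the antiviral interferon-stimulated genes. Such sums cannot be read as amounts of these cells. The part of other cells in the results above was not tested.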

How the data were processed

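Total RNA of 8 macrophage libraries was sequenced with Illumina TruSeq kits, per the labels' protocols. The authors deposited TPM values for 88198 Ensembl transcripts per library, and the submitters' processing notes name kallisto and mm10; the version, the options and the use of strand are not given in the sources. TPM keeps no depth, so counting error cannot be given, and a gene's TPM shifts when others take more of the fixed sum. Transcripts were matched to GENCODE M21 on GRCm38 (86119 matched; the others held 1.01% to 1.95% of TPM) and summed to 30284 genes. A filter of 1 TPM or more in 2 or more libraries left 13009 genes, tested on log2(TPM + 1) with limma 3.58.1 (R 4.3.3, trend, 1 mean per group, all 8 libraries, 4 residual degrees of freedom) and Benjamini-Hochberg adjustment. The script was tested on simulated data for LPS+IFNb against IFNb with 13009 genes, where it recovered 65 of 100 genes changed by 1 and 98 of 100 changed by 2 (log2), with 12 false calls. No other genes were changed there, the noise was independent between libraries and the sum was not fixed. In the data 39.3% of genes were called, so these rates do not carry over. An exact permutation test of 2 against 2 libraries cannot go below p = 0.333, so none is given.

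Libraries were grouped by label; the members, gene lists and naming rules were chosen with earlier results of these data known. Named genes were the 12 largest rises and falls, up to 4 called members per direction of each list, a set of 28 focal genes, and the 8 largest interactions in each direction; others are said to be added. Same-numbered libraries of IFNb and LPS+IFNb deviated together only weakly (r = 0.126; saline and LPS 0.141; other pairs of groups -0.156 to 0.00527), so numbers were not treated as pairs. That r is taken over all genes tested, and some list sums did follow the numbers. Mesothelial and fibroblast markers were at 131 and 69.0 TPM in IFNb and 112 and 57.9 TPM in LPS+IFNb. In saline and LPS they were at 57.5 and 147 TPM and 61.6 and 137 TPM, the other way round. The coagulation list was at 15104 and 11736 TPM in IFNb and 18500 and 14167.5 TPM in LPS+IFNb. The antimicrobial and arachidonate list was at 5081 and 3734 TPM and 9743 and 7932 TPM. In saline and LPS these 2 lists were also the other way round. Other lists, such as mitochondrially encoded genes, did not follow them. The replicate block is a shift shared by all groups and cannot take up pairing that differs between groups. Whether the numbers mark pairs was not settled. If they do, the unpaired errors are too wide for genes that follow them, and calls lost without single libraries may reflect this. That was not tested. Alternatives covered scaling, the genes in the sum, the pseudocount, the filter, the libraries fitted, the thresholds, the block and single libraries left out. Of the 9 marker lists, those for mast cells, basophils and eosinophils (1 of 10 lower, none without any 1 library except LPS+IFNb replicate 1), mesothelial cells and fibroblasts (none of 13 called by limma, 1 with an unadjusted p under 0.05) and erythroid cells and platelets (1 of 5 lower, 0 to 2 without any 1 library) are given only here.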

Additional observations from a re-analysis of the deposited data

Results flagged for a closer look

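For each gene below, the response to LPS differed with and without prior IFNb by the test of the interaction (adjusted p under 0.05). Values are the interaction, the change in LPS+IFNb against IFNb minus the change in LPS against saline, on the log2(TPM + 1) scale. The interaction was called for 7.96% of all genes.

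Interferon-response genes with a negative interaction included Ifit1 (-8.17), Mx1 (-6.82), Cmpk2 (-6.81), Rsad2 (-6.57), Gbp5 (-6.52), Isg15 (-6.05), Ifi205 (-5.43), Stat2 (-4.11) and Ifit1bl1 (-3.94). Interferon-response genes with a negative interaction also included Trex1 (-3.81), Irf7 (-3.23) and Jak2 (-2.27). Ifnb1, the interferon beta gene, had a positive interaction (2.88). Cytokines, chemokines and growth factors with a negative interaction included Cxcl10 (-8.44), Ccl4 (-4.59), Il27 (-3.38), Tnfsf10 (-3.36), Il23a (-3.13), Cxcl3 (-2.97), Tnf (-2.57), Ccl3 (-1.96) and Il6 (-1.71). Cytokines, chemokines and growth factors with a negative interaction also included Ccl5 (-1.11). Cytokines, chemokines and growth factors with a positive interaction included Gdf15 (2.63). Signalling and feedback genes with a negative interaction included Socs1 (-5.51), Il10 (-1.18), Nfkbiz (-1.06), Tnfaip3 (-0.82) and Nfkbia (-0.80). Signalling and feedback genes with a positive interaction included Dusp2 (1.62), Batf (1.42) and Ier2 (1.32). Other genes with a negative interaction included Acod1 (-5.02), Cd40 (-3.43), Plau (-1.58), Spry2 (-1.42), Aim2 (-1.39), Slc2a6 (-1.11), Actb (-0.83), Bcl2a1d (-0.83) and S1pr2 (-0.77). Other genes with a negative interaction also included Sod2 (-0.77) and Hif1a (-0.61). Other genes with a positive interaction included Hamp (3.54), Dusp7 (3.25), Cxcr4 (2.95), Gadd45a (2.74), Tsc22d3 (1.44), C5ar1 (1.17), Ccng2 (0.95), Abcg1 (0.95) and Arl11 (0.94). Other genes with a positive interaction also included Rhov (0.88). The difference in time after IFNb between the groups cannot be told apart from these differences, and their causes were not tested.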

How the results depend on the processing

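Counts moved with the scale, the threshold and single libraries left out. In LPS+IFNb against IFNb, 5107 genes changed as reported, 3211 after median-ratio scaling (1788 higher, 1423 lower), 2413 at an adjusted p under 0.01 (716 and 1697) and 1511 with at least a 2-fold change (627 and 884). Upper-quartile scaling gave 2128 lower genes. Single libraries left out gave 2491 to 3363 changed, 741 to 829 higher and 1750 to 2534 lower genes. The split of higher against lower calls depended on the scale. In LPS against saline the counts were 2718 higher and 2254 lower after median-ratio scaling, 4639 changed and 3416 lower at an adjusted p under 0.01, and 3028 changed, 973 higher and 2055 lower with a 2-fold change. The interaction gave 401 changed, 95 positive and 306 negative genes at an adjusted p under 0.01. Its positive calls were 269 after median-ratio scaling, 294 with no filter and 284 with a 2-fold change, and single libraries left out gave 469 to 949 changed, 129 to 453 positive and 340 to 612 negative genes. With the replicate number as a block, LPS+IFNb against IFNb gave 1052 higher and 3554 lower genes, and the interaction 263 positive. For the shifts between alternatives the cause was not tested.

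Of 124 genes named, 117 were called, of which only Psap changed sign under an alternative run; 88 kept their call under all of them and 18 lost it without at least 1 single library. Signs turned for Psap and for genes not called: median-ratio scaling gave Arg1 0.0215, Ifit1 0.13, Irf7 0.25, Mx1 0.20, Psap 0.0137 and Rsad2 0.17 and upper-quartile scaling gave Irf7 0.12, Mx1 0.0683 and Rsad2 0.0392. Without single libraries Adgre1 ranged from -0.0173 to 0.26 and Arg1 ranged from -1.01 to 0.36. An unknown depth limits every low value, and 2 libraries per group limit the errors.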

Other observations

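The genes below were chosen after their values were seen, and the calls of Actb, Fth1, Psap, Ctsd, Ifna5 and Il1f6 were each lost without 2 or more single libraries. In absolute TPM, the largest gains in LPS+IFNb were not all in inflammatory genes. Actb, the cytoskeletal beta actin often used as a reference gene, averaged 14347 ± 297 TPM in IFNb and 19884 ± 958 TPM in LPS+IFNb (0.47 ± 0.09, adjusted p = 0.00758, rescaled 0.81), which made up 3.84% of all TPM gains. Il1rn made up 3.03% of them, more than Il1b (1.47%). Fth1, the ferritin heavy chain that stores iron, went from 8708 and 8643 TPM to 12434 and 11472 TPM (0.46 ± 0.09, adjusted p = 0.00919), while the light chain gene Ftl1 showed the largest loss of TPM, from 14434 and 13642 TPM to 10437 and 9222 TPM. The lysosomal genes Psap and Ctsd, which encode prosaposin and cathepsin D, went from 11598 and 11766 TPM to 9257 and 9334 TPM (-0.33 ± 0.07, adjusted p = 0.0145, rescaled 0.01) and from 7176 and 7907 TPM to 5123 and 5609.8 TPM (-0.49 ± 0.11, adjusted p = 0.0134, rescaled -0.15).

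Some genes were listed at 0 in both IFNb libraries and above 1 TPM in both LPS+IFNb libraries. Ifna5, an interferon alpha gene, was at 2.96 and 1.04 TPM in LPS+IFNb and listed at 0 in the other 6 libraries, including both LPS libraries. Interferon alpha genes are near-identical, so reads may be divided among them with error. Il1f6, which encodes IL-36 alpha, was at 4.51 and 1.42 TPM in LPS+IFNb and at 1.50 and 3.91 TPM in LPS.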
